A study of Drosophila melanogaster with 2 samples.

Results

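Cropped (crp) was profiled by chromatin immunoprecipitation with sequencing (ChIP-seq), and 598 of its 1122 reproducible peaks (53.3%, Wilson 95% interval 50.4 to 56.2) lay at divergent promoters. A peak was placed in this set when its summit, the base of highest enrichment, had annotated transcript starts of protein-coding genes on both strands within 1000 bp. Neither the signal nor the DNA sequence entered that choice. The remaining peaks were 455 one-strand promoter peaks, with starts of only 1 strand in the window, and 69 with no start in it. The material was whole embryos aged 0 to 16 hours, males and females pooled, of the transgenic line crp-GFP, which stably expresses crp with a C-terminal GFP, and chromatin sheared to 200 to 800 bp was precipitated with an anti-GFP antibody. All embryos were of this single group, in biological replicates 1 and 3, so no condition was compared with another, and a whole embryo mixes all its cell types and stages. Tagged protein was read out in place of the native one, and the control experiment that the labels mention was not analysed here. Reproducible means that the peak passed the irreproducible discovery rate (IDR) procedure of the authors, and the signal is the peak caller's enrichment value in their lists. Depth is unknown, and no p-value was computed, since neighbouring peaks of 1 pooled list are not replicates.

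Cropped is the fly counterpart of vertebrate AP-4 and belongs to the family of basic helix-loop-helix proteins that also carry a leucine zipper. Such proteins bind DNA as dimers at E-boxes, and the AP-4 site, CAGCTG, reads the same on both strands. In a divergent promoter a pair of genes is transcribed away from a shared stretch of DNA, so a single bound site can lie upstream of both. This arrangement is common in the compact fly genome and is frequent among genes for basic cell functions.

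The stretch between the starts is shown for 8 summits, so that the place of the E-box can be read directly. They are the strongest that lay between starts with 60 to 300 bp of intervening DNA touching no annotated exon. Sequence of 1 chromosome arm is not shown here, and with that arm counted the 8 strongest such stretches likewise held the hexamer in 6. Over all 202 stretches of this kind it was found in 105 (52.0%, 45.1 to 58.8). Each sequence runs 5′ to 3′ on the plus strand of dm6, from the base after the minus-strand gene's start to the base before the plus-strand gene's start, and capitals mark CAGCTG. The first gene of each name is on the minus strand and so is transcribed leftwards from the left end.
Slh/oaf: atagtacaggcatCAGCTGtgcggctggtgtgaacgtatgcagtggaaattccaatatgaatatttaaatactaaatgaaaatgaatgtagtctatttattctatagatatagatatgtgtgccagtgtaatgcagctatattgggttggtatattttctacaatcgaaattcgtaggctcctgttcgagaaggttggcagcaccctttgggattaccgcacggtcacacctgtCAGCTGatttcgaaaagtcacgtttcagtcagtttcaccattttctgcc
HtrA2/mRpL11: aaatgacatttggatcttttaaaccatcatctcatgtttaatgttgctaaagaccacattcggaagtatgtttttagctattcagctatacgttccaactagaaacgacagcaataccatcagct
ssh/Nmnat: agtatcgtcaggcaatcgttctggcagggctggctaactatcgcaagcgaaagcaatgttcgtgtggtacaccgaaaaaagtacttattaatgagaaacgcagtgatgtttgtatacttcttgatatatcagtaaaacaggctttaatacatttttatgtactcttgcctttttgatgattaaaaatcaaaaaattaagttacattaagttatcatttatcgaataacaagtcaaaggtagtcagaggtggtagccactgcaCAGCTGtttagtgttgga
CG9117/CG31643: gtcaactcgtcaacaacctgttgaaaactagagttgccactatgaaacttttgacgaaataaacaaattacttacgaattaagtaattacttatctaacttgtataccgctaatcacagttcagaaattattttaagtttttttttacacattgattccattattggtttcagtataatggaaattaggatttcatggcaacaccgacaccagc
disp/ECSIT: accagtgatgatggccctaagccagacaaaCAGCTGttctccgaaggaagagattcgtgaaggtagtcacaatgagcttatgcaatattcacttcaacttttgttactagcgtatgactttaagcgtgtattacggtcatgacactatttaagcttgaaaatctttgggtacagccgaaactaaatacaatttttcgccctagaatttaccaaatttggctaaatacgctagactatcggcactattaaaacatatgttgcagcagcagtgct
NTPase/lilli: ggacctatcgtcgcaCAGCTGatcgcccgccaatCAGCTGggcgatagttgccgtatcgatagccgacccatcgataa
Rad60/EloA: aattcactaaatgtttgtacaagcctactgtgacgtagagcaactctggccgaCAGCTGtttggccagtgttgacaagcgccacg
SelR/Tsp86D: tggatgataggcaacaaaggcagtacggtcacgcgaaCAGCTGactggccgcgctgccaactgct
The regions, in the same order, were chr2L:2492672-2492954, chr3R:14511713-14511837, chr3R:24944957-24945236, chr2L:6037903-6038116, chr3R:5856312-5856584, chr2L:2885851-2885928, chr3R:23251478-23251562 and chr3R:10868643-10868707. Of these 8 stretches, 6 held the hexamer and 2 of the 6 held it 2 times. In Slh/oaf the copies began at bases 14 and 235 of 283, 1 beside each start, and the summit was at base 116 between them. In NTPase/lilli the copies began at bases 16 and 35 of 78, and the summit was at base 28. In ssh/Nmnat the single copy began at base 263 of 280, close to the Nmnat start, and the summit was at base 247. At the HtrA2/mRpL11 summit shown, the nearest copy was centred 66.5 bp to the right, its last base being the mRpL11 start itself. At CG9117/CG31643 it was centred 37.5 bp to the left, inside the transcribed side of the CG9117 start.

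The label held in the annotation. In 587 of the 598 peaks (98.2%, 96.7 to 99.0) the start nearest to the summit on the minus strand lay to the left of the nearest one on the plus strand, which is the head-to-head arrangement. In the other 11 the starts passed each other by 19 to 750 bp, with a median of 204 bp, so that the transcripts overlapped at their 5′ ends. Among those 11 the strongest were Pax/Alp12 with a signal of 199.9 (105.2 in replicate 1, 93.2 in replicate 3) and CG4741/Adck1 with 192.0 (89.2 and 98.7). Exactly 1 gene on each strand had a start in the window at 538 peaks, and 3 or more genes did at 60.

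Both-strand peaks made up 598 of 1053 promoter peaks of the IDR list (56.8%, 53.8 to 59.8). Of the 6704 pooled candidates near a start that overlapped no IDR peak, 1220 had starts of both strands (18.2%, 17.3 to 19.1). Over all 13968 protein-coding genes, 1550 had an IDR summit within 1000 bp of a start, a background of 11.1%. Among the genes of close head-to-head pairs, meaning neighbouring starts up to 1000 bp apart, 1066 of 4873 had one (21.9%, 20.7 to 23.1), against 484 of 9095 other genes (5.32%, 4.88 to 5.80). A summit within 1000 bp of both starts counted for both genes, so the genes of a pair are not independent counts. Counted by pair, 529 of 2510 close head-to-head pairs had an IDR summit within 1000 bp of both starts (21.1%). With candidates of any strength in the pooled list counted, 1418 of the 2510 pairs had one (56.5%, 54.5 to 58.4). Of those 1418 pairs, 529 had an IDR summit (37.3%, 34.8 to 39.9).

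At the 587 head-to-head peaks the starts lay a median of 259 bp apart, with quartiles of 144 and 365 bp and a range of 1 to 1634 bp. Spacing up to 100 bp was found at 112 peaks, 101 to 200 bp at 67, 201 to 300 bp at 197, 301 to 500 bp at 132 and more than 500 bp at 79. The counts therefore had 2 high points with a lower stretch between them. All 2510 close pairs of the genome had the same dip, with 416 pairs up to 100 bp, 343 at 101 to 200 bp and 519 at 201 to 300 bp. The share of pairs with an IDR summit also dipped there, at 30.5% (26.3 to 35.1) up to 100 bp, 20.7% at 101 to 200 bp and 31.0% (27.2 to 35.1) at 201 to 300 bp. It was 17.6% (14.8 to 20.7) at 301 to 500 bp and 9.98% (7.85 to 12.6) at 501 to 1000 bp.

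**Figure D1:**
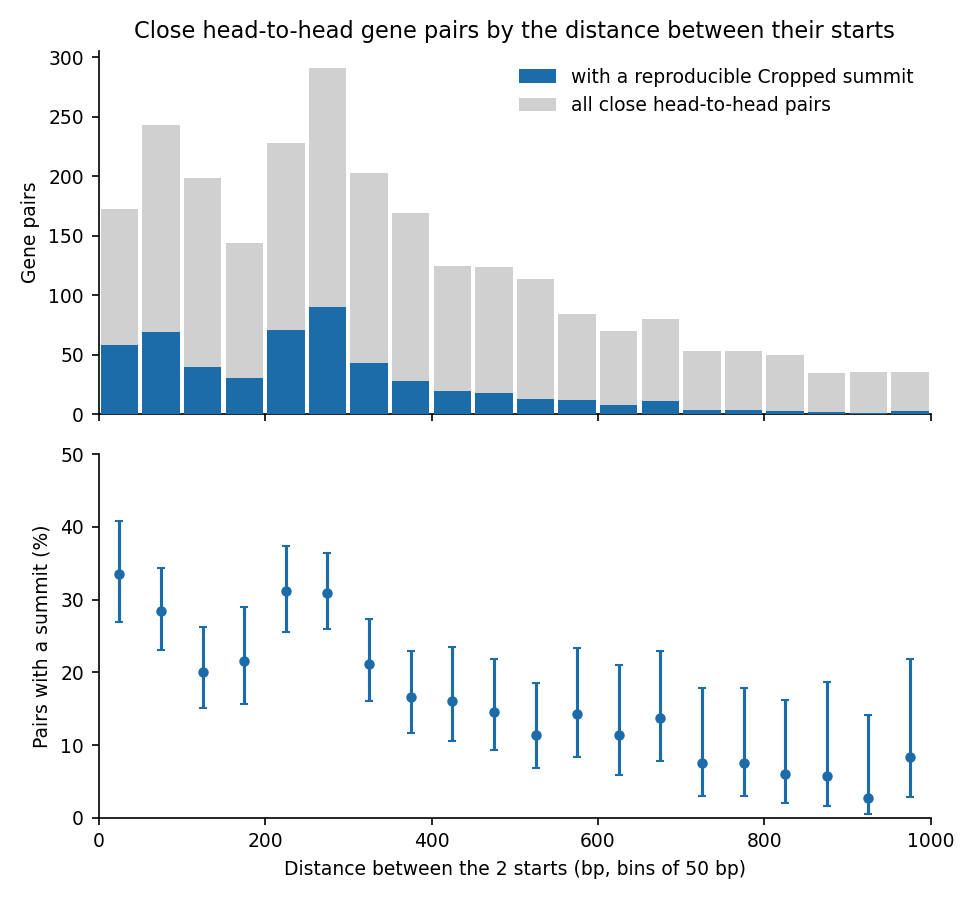
Close head-to-head gene pairs by the distance between their starts in bins of 50 bp: above, pairs with a reproducible Cropped summit (blue) in front of all pairs (grey); below, the percent of pairs with a summit and its Wilson 95% interval. The share was 33.5% in the first bin, 20.1% at 101 to 150 bp, 31.1% at 201 to 250 bp and under 15% in every bin beyond 450 bp.

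The narrowest pair was Atg6/Pisd, whose starts are 1 bp apart. Atg6 is the fly Beclin 1 of autophagy, and Pisd is a phosphatidylserine decarboxylase. The signal there was 104.2, with 56.7 in replicate 1 and 47.2 in replicate 3. At SerRS/CG17260, with 8 bp between the starts, it was 164.7 (102.2 and 65.2), and at CG2004/CG1785, with 12 bp, it was 182.4 (123.3 and 60.7). In all 3 the summit was downstream of the minus-strand start, by 35, 65 and 96 bp. The widest was myo/ey with 1634 bp, which joins the ligand gene myoglianin to eyeless, a Pax6 gene of eye development, and had a signal of 79.9 (46.3 and 32.6). It was followed by alc/CG44286 with 1149 bp and 73.8 (31.0 and 41.3), and by ND-75/CG1632 with 983 bp and 116.7 (73.6 and 51.8). The order of these 6 by signal did not follow their spacing throughout, since ND-75/CG1632 was above Atg6/Pisd.

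Across spacing classes the median signal was 145.8 up to 100 bp, 128.6 at 101 to 200 bp, 120.5 at 201 to 300 bp, 113.1 at 301 to 500 bp and 100.6 beyond. In replicate 3 the medians had the same order, at 63.9, 60.2, 56.2, 53.2 and 46.9. In replicate 1 they were 82.8, 64.9, 68.4, 61.5 and 57.3, so the classes of 101 to 200 bp and 201 to 300 bp changed places. The classes overlapped widely, with quartiles of 103.0 and 195.2 in the narrowest class and 81.0 and 132.6 in the widest. Across the 587 peaks spacing and signal had a Spearman rho of −0.19 and a Pearson r of −0.14, given as a description, since all points come from 1 pooled list.

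The window edge separated few cases. The members with the farthest second start were alc/CG44286 at 985 bp, CG15308/CG34408 at 969 bp and Etl1/Srp54 at 933 bp, with signals of 73.8, 74.1 and 67.0. Just outside lay CG8520/CG8834 and wde/CG12935, each at 1011 bp, and Rab1/Idi at 1018 bp, with signals of 305.9, 62.9 and 63.4. Both starts were within 500 bp at 531 members (88.8%) and within 200 bp at 287 (48.0%).

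Summits lay between the starts at 441 of 587 head-to-head peaks (75.1%, 71.5 to 78.5). They were downstream of the minus-strand start at 64 and downstream of the plus-strand start at 82. These counts include the weaker second summits of some pairs, nearly all of them to the right of the stronger one. With 1 summit per merged region, 78.3% lay between the starts. The starts meant are those nearest to the summit on each strand, and with the 5′-most start of each gene the share was 69.0%. The share between the starts was 46.4% (37.5 to 55.6) for spacing up to 100 bp, 65.7% (53.7 to 75.9) at 101 to 200 bp, 82.7% (76.9 to 87.4) at 201 to 300 bp, 89.4% (83.0 to 93.6) at 301 to 500 bp and 81.0% (71.0 to 88.1) beyond. A narrow gap has less room for a summit, so this share depends in part on the spacing itself. The nearest start was a median of 45 bp away, against 59 bp at one-strand promoter peaks. It was within 100 bp at 477 of 598 (79.8%, 76.4 to 82.8), against 295 of 455 one-strand peaks (64.8%, 60.3 to 69.1). At both-strand peaks the nearest start was taken over both strands, at one-strand peaks over 1 strand only. A shorter distance at both-strand peaks is therefore favoured by the definition of the classes.

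Within wide gaps the summits were more often near the edges than in the centre. Among the 346 summits between starts at least 200 bp apart, 5 equal parts of the gap, from the minus-strand to the plus-strand start, held 73, 60, 47, 70 and 96. The central part thus held 13.6% (10.4 to 17.6), and the part beside the plus-strand start 27.7% (23.3 to 32.7). Both shares include weaker second summits, nearly all to the right of the stronger one, and are not given without them. The position differed with the E-box. With CAGCTG within 50 bp of the summit, 93 of 119 such summits were in the outer parts (78.2%, 69.9 to 84.6) and 4 in the central one. Without it, 76 of 227 were in the outer parts (33.5%, 27.7 to 39.8) and 43 in the central one (18.9%, 14.4 to 24.5). For all 409 peaks of that spacing, the nearest start was a median of 34 bp away with the hexamer (n = 159) and 81.5 bp away without it (n = 250).

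**Figure D2:**
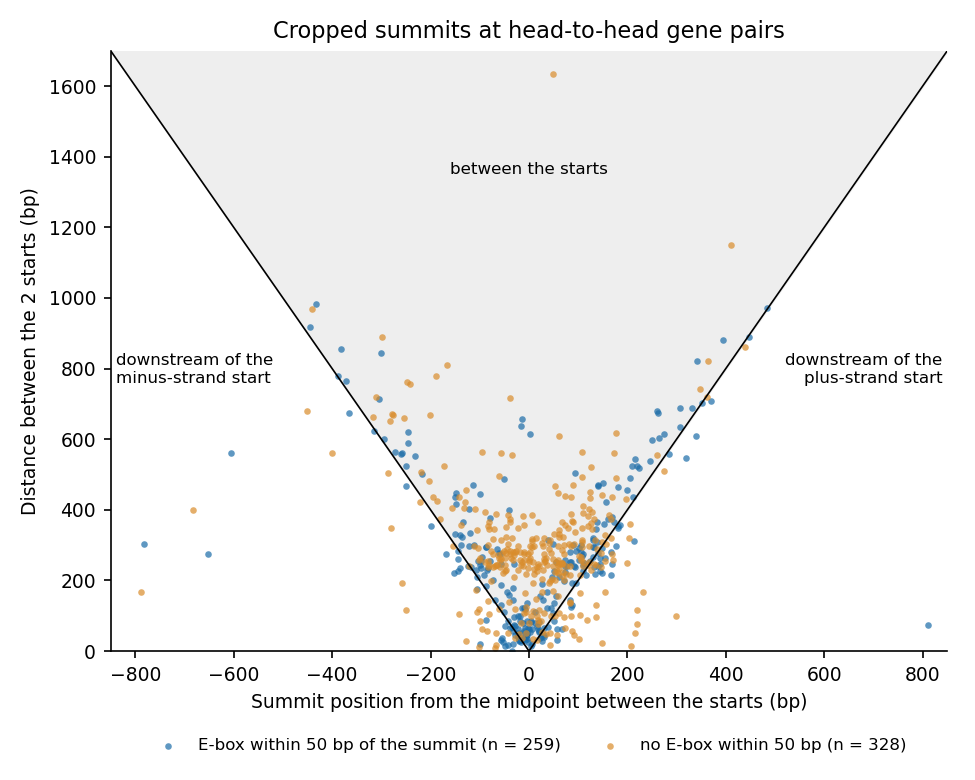
Position of 587 Cropped summits relative to the midpoint between the starts (x, bp) against the distance between the starts (y, bp); black lines mark the starts and grey the gap between them. Blue points, with an E-box within 50 bp of the summit, lie mostly near the lines, while orange points, without one, also fill the middle of gaps of about 200 to 400 bp.

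CAGCTG, searched on both strands, lay wholly within 50 bp of the summit at 265 of 598 both-strand peaks (44.3%, 40.4 to 48.3), against 256 of 455 one-strand peaks (56.3%, 51.7 to 60.8). In the 1220 both-strand candidates outside the IDR list it was at 8.03% (6.64 to 9.69), and in windows of the same 101 bp ending at the 5′-most start of every protein-coding gene at 7.67% (7.24 to 8.12). In windows 300 to 350 bp away on either side of the same summits it was present at 6.35% of both-strand and 6.15% of one-strand peaks. The hexamer was therefore found near the summit in both promoter classes at several times its level in these backgrounds. Within 100 bp it was present at 67.1% of both-strand peaks (63.2 to 70.7), against 73.8% of one-strand peaks (69.6 to 77.7). Within 250 bp the values were 89.3% (86.6 to 91.5) at both-strand and 84.6% (81.0 to 87.6) at one-strand peaks, beside 28.4% (25.9 to 31.0) at the other both-strand candidates and 23.3% (22.2 to 24.4) at the other one-strand candidates.

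With every summit counted, the copies at both-strand peaks were thus spread farther from the summit. In the central 50 bp there were 28.9 copies per 100 both-strand peaks, against 40.2 per 100 one-strand peaks. At 250 bp to the left there were 9.20, against 4.62, and at 250 bp to the right 3.85, against 1.10. Pairs with 2 summits entered at each summit, mostly about 200 bp apart with the weaker to the right, so a copy can be counted at both. The profile is not given with 1 summit per pair. Of the 333 both-strand peaks with no copy within 50 bp, 269 had at least 1 within 250 bp (80.8%, 76.2 to 84.7), against 129 of 199 one-strand peaks (64.8%, 58.0 to 71.1). Copies on both sides, with none within 50 bp, were found at 44 both-strand peaks (13.2% of the 333, 9.99 to 17.3), as in the Slh/oaf sequence above, against 19 one-strand peaks (9.55% of the 199, 6.20 to 14.4). The intervals of these last shares overlap. The median signal was 146.5 at those 44, 120.2 at the 225 with copies on 1 side, and 91.2 at the 64 both-strand peaks with none within 250 bp, where the highest was 185.7.

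**Figure D3:**
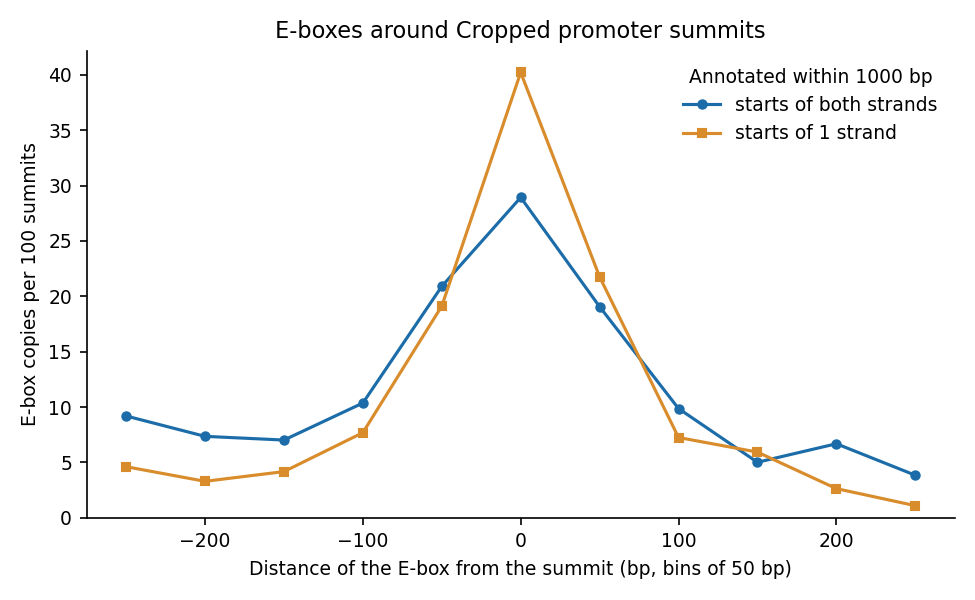
E-box copies per 100 summits (y) in bins of 50 bp by distance from the summit (x, bp, genome orientation) at peaks with starts of both strands (blue circles) and of 1 strand (orange squares). Both profiles peak at the summit, at 28.9 and 40.2 copies, and the blue one lies above the orange one in the outermost bins on both sides. Every summit is counted, the weaker summits of a pair included.

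Signal differed with the number of copies. Both-strand peaks with 2 or more copies within 50 bp (n = 32) had a median of 187.6 (87.3 in replicate 1, 94.0 in replicate 3), those with 1 copy (n = 233) 121.2 (67.7 and 57.8), and those with none (n = 333) 113.3 (62.7 and 53.2). The quartiles of the first and last class were 139.1 and 224.4, and 82.3 and 170.0. One-strand peaks had medians of 148.6, 116.6 and 94.2 in the same order (n = 36, 220 and 199). With the IDR list divided into 4 equal groups by signal, from the strongest to the weakest, the share of both-strand peaks with the hexamer was 48.9%, 47.8%, 45.6% and 30.4%, against 73.0%, 65.2%, 50.5% and 40.9% of one-strand peaks. In the strongest group the intervals of the 2 classes were 41.6 to 56.2 and 63.6 to 80.7 and did not overlap. By spacing, the hexamer was within 50 bp at 62.5% (53.3 to 70.9) of both-strand peaks up to 100 bp, 44.8% at 101 to 200 bp, 37.1% at 201 to 300 bp, 31.8% (24.5 to 40.2) at 301 to 500 bp and 55.7% (44.7 to 66.1) beyond.

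Other promoter words were searched in the same 101 bp on both strands. TATCGATA, the core of the DNA replication-related element, was at 7.69% of both-strand and 7.03% of one-strand peaks, beside 6.29% of all starts. GGTCACAC, the core of the Ohler motif 1 class, was at 3.34% and 3.08%, beside 3.06%. GAGAG, the GAGA factor word, was at 7.02% and 11.6%, beside 13.3%, and TATAAA at 15.6% and 13.4%, beside 20.2%. TCAGT, of the initiator, was at 17.7% and 18.0%, beside 21.2%, and the E-box CACGTG at 1.00% and 1.54%, beside 1.05%. The windows of all starts end at the start base, so a TCAGT that reaches past the start was not counted in them. None of these 6 exceeded its share of all starts by as much as CAGCTG did. Median GC content of the 101 bp was 38.6% at both-strand and 42.6% at one-strand peaks.

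Across the genome, bound pairs (those with an IDR summit) and unbound pairs differed in how often CAGCTG lay between the starts. CAGCTG was present between the starts of 235 of 529 close head-to-head pairs with an IDR summit (44.4%, 40.2 to 48.7), against 208 of 1981 pairs without one (10.5%, 9.23 to 11.9). A summit was found at 14.2% (12.8 to 15.8) of the 2067 pairs with no copy, 51.8% (46.8 to 56.7) of the 388 with 1 copy and 60.4% (46.3 to 73.0) of the 48 with 2 copies. In each spacing class the pairs with the hexamer had the higher share. Up to 100 bp it was 39 of 47 pairs (83.0%, 69.9 to 91.1), against 23.8% (19.8 to 28.5) of those without, and at 201 to 300 bp it was 76.9% (68.0 to 84.0), against 19.5% (16.0 to 23.6). At 501 to 1000 bp it was 23.6% (17.1 to 31.7), against 6.40% (4.55 to 8.95).

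The share with a summit also differed with the place of the copy. Copies in bound pairs were centred a median of 26.5 bp from the nearer start (n = 275), against 76 bp in unbound pairs (n = 232). For pairs with a single copy, an IDR summit was found at 98 of 145 with the copy up to 25 bp from the nearer start (67.6%, 59.6 to 74.7), at 58 of 87 from 25 to 50 bp (66.7%, 56.2 to 75.7) and at 37 of 74 from 50 to 100 bp (interval 38.9% to 61.1%). Beyond 100 bp it was found at 8 of 82 (9.76%, 5.03 to 18.1). That last share is close to the 14.2% of pairs with no copy at any spacing, and the intervals overlap. A copy that far from both starts needs starts over 200 bp apart. Among pairs with the hexamer the share with a summit was 46.5% at 301 to 500 bp and 23.6% at 501 to 1000 bp. The place of the copy and the spacing were not separated.

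The bases beside the hexamer also differed. Read outward from both sides of each copy, with the strand chosen so that the base precedes CAGCTG, the adjacent base was A at 50.5% of sides in bound and 31.7% in unbound pairs, and G at 7.45% and 25.9%. The next base out was A at 66.0% and 36.9%. Among single-copy pairs a summit was found at 89 of 120 with ACAGCTGA or its reverse complement (74.2%, 65.7 to 81.2), 44 of 70 with ACAGCTGT (62.9%, 51.1 to 73.2) and 22 of 36 with ACAGCTGG (61.1%, 44.9 to 75.2). It was found at 12 of 39 with ACAGCTGC (30.8%, 18.6 to 46.4), 2 of 17 with GCAGCTGC (11.8%, 3.29 to 34.3) and 2 of 20 with CCAGCTGC (interval 2.79% to 30.1%). The other 4 octamers had shares of 29.6% to 38.5% over 12 to 27 pairs each, so A before the hexamer with A, T or G after it gave the 3 highest shares of the 10.

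The signal of the 598 peaks had a median of 120.3, quartiles of 88.3 and 175.9 and a range of 61.3 to 586.0, against a median of 105.5 and quartiles of 78.3 and 156.5 at one-strand peaks and a median of 80.5 at peaks with no start. In replicate 1 the medians were 66.1 at both-strand and 55.5 at one-strand peaks, and in replicate 3 they were 56.2 and 53.0. The classes overlapped, and the strongest peaks of all were not divergent, since one-strand peaks reached 770.4. Both-strand peaks were 10 of the 20 strongest and 60 of the 100 strongest IDR peaks. In the 4 equal groups by signal, from the strongest to the weakest, they made up 63.6% (57.8 to 69.0), 57.3%, 52.5% and 39.9% (34.3 to 45.7).

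The strongest summit was at HtrA2/mRpL11, at 586.0 in the pooled list, with 333.5 in replicate 1 and 256.2 in replicate 3, and was number 3 in the ranks of both libraries. HtrA2 is a serine protease of mitochondria, and mRpL11 is a protein of the large subunit of the mitochondrial ribosome. A second summit 199 bp away, at an alternative HtrA2 start, had 356.7 (223.6 and 107.3). TTLL12/puml, of a tubulin tyrosine ligase-like protein and the lipid hydrolase pummelig, had 512.4 (259.9 and 255.3) and 2 hexamer copies within 50 bp. CG10383/CG10338 had 450.0 (235.1 and 222.7), with the summit 64 bp downstream of the CG10383 start. These values were at the upper end in both libraries, and the replicates differed most at the second HtrA2/mRpL11 summit.

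Slh, a Sec1-family protein of transport between endoplasmic reticulum and Golgi, shares its promoter with oaf, where the signal was 408.8 (248.9 in replicate 1, 159.8 in replicate 3). RabGGTb, a subunit of the enzyme that lipidates Rab proteins, is paired with the peroxiredoxin gene Prx6a at 386.8 (201.4 and 188.7). KLHL18 and the golgin gene GCC185 share a promoter that had 286.3 (162.2 and 125.9). Vha44/Hmgs joins a subunit of the vacuolar proton pump to HMG-CoA synthase and had 308.6 (168.7 and 147.8), with 2 hexamer copies. These 4 summits, numbers 7, 11, 32 and 26 of the IDR list, were all between the starts nearest to them on each strand. The Vha44/Hmgs summit also lay in an annotated 5′ untranslated region.

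The rest of the 20 strongest were of mixed function. RpL24-like, a ribosome assembly factor, with CG5276 had 396.6 (197.9 in replicate 1, 204.0 in replicate 3). CG33228/Pof, whose protein coats chromosome 4, had 344.4 (189.4 and 154.0), and ssh/Nmnat, of the cofilin phosphatase slingshot and an NAD-synthesis enzyme, had 328.7 (173.4 and 158.5). CG9117/CG31643 went the other way between libraries, with 319.3 (129.1 and 194.9). Dispatched, which releases the Hedgehog ligand, is paired with ECSIT at 316.5 (165.3 and 155.8). ACC/Nup44A, of acetyl-CoA carboxylase and a nucleoporin, had 304.5 (179.1 and 128.4). The remaining summits were CG9003/CG34228 with 391.0, CG7183/CG7988 with 307.5, Zip99C/CG34133 with 305.4, NTPase/lilli with 294.3, CROT/CG12877 with 284.2 and Rad60/EloA with 282.2. Of these 20 summits, replicate 1 was the higher in all except RpL24-like/CG5276, CG9117/CG31643 and NTPase/lilli.

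A candidate was found in both replicates at 594 of the 598 summits. The exceptions were Fatp1/Lrr47, SH3PX1/vsg and the weaker Zip99C/CG34133 summit, which had none in replicate 3, and CG6923/CG43062, which had none in replicate 1. On the log2 scale the signal of replicate 3 over that of replicate 1 had a median of −0.20 (SD 0.57 over peaks), against −0.13 at one-strand peaks and 0.37 at the 69 peaks with no start. Replicate 3 was the higher at 196 of 594 both-strand peaks (33.0%, 29.3 to 36.9), against 181 of 454 one-strand peaks (39.9%, 35.5 to 44.4) and 50 of the 69 (72.5%, 61.0 to 81.6). The 2 libraries were within 2-fold of each other at 540 of the 594 (90.9%), and across those peaks their signals had a Pearson r of 0.81 and a Spearman rho of 0.74. Among the strongest 1122 candidates of both libraries at once were 485 both-strand peaks (81.1%, 77.8 to 84.0), against 341 one-strand peaks (74.9%, 70.8 to 78.7). All these peaks had already passed the IDR procedure, which selects for reproducible peaks. The shares and correlations are therefore not an independent measure of agreement between the libraries.

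**Figure D4:**
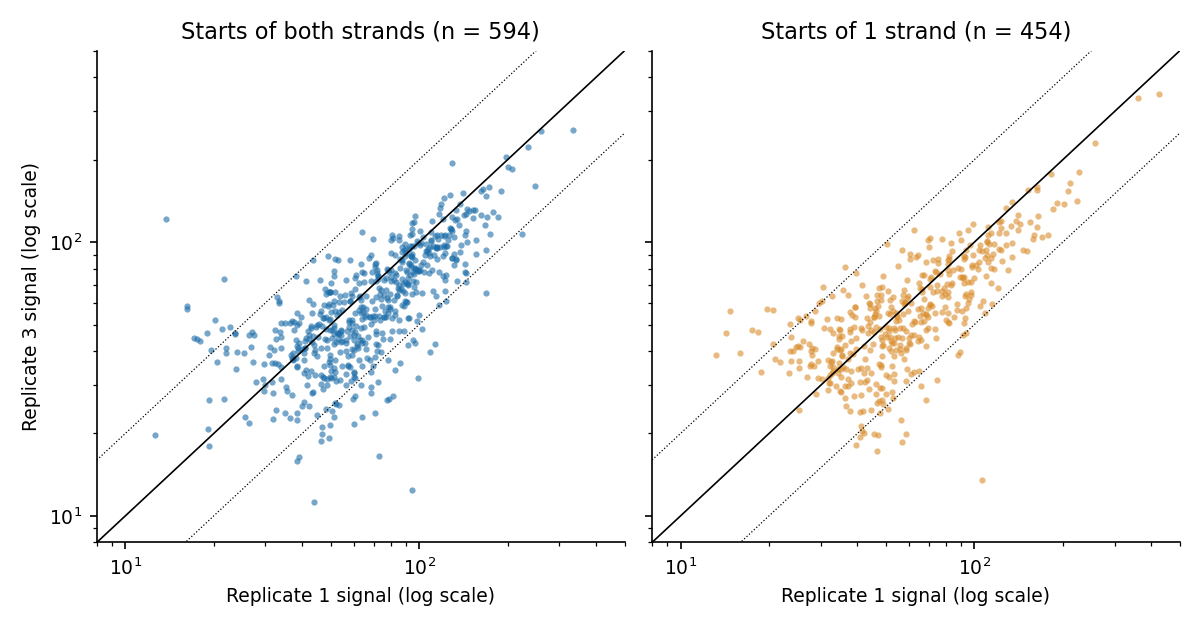
Signal in replicate 1 (x) and replicate 3 (y), both on log scales, at peaks with starts of both strands (left) and of 1 strand (right); the solid line marks equal signal and the dotted lines a 2-fold difference. Within the dotted lines lay 540 of 594 and 417 of 454 peaks, and the points outside them lie mostly in the lower left of each plot.

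Of the 54 summits that differed by more than 2-fold, 35 were at pairs with 1 summit. At those pairs 416 of 451 summits were within 2-fold (92.2%, 89.4 to 94.4). At pairs with 2 or more summits, 19 of 143 were beyond 2-fold (13.3%, 8.67 to 19.8). The share beyond 2-fold was 16 of 70 weaker summits of pairs with 2 (22.9%, 14.6 to 34.0). The 3 lowest and 3 highest ratios of replicate 3 over replicate 1 follow, 4 of them at such summits. At the weaker disp/ECSIT summit the values were 94.8 in replicate 1 and 12.4 in replicate 3, a log2 ratio of −2.94, and at the weaker cni/fzy summit 73.2 and 16.6 (−2.14). At the weaker not/bora summit they were 44.0 and 11.2 (−1.97). In the opposite direction, the weaker qless/mRpL32 summit had 13.8 in replicate 1 and 121.2 in replicate 3 (3.14). That replicate 3 value belongs to the candidate that also matched the stronger summit of the pair, as happened at 18 summits in replicate 3 and 10 in replicate 1. At sturkopf/Herc4 the values were 16.2 and 58.5 (1.85), and at CG17985/CG30491 16.2 and 56.9 (1.81).

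The 598 summits belonged to 525 gene pairs, and 72 pairs had 2 or more summits. Of the 71 pairs with exactly 2, the summits of 64 were within 20 bp of 200 bp apart, with a median of 202 bp and a minimum of 199 bp. Most intervals in the list had the same width of 404 bp, so this distance is close to 1 side of an interval. In all 71 pairs except NTPase/lilli, with summits 611 bp apart, the stronger summit was the left one in genome coordinates. The part of the peak calling in this distance and order was not tested. Whether the weaker summits are separate binding positions was not tested either. The stronger summit had a median signal of 185.7 and the weaker one 81.0, and CAGCTG was within 50 bp at 30 of 71 stronger (42.3%, 31.5 to 53.8) and 21 of 71 weaker summits (29.6%, 20.2 to 41.0). Dhc64C/LeuRS-m, of the cytoplasmic dynein heavy chain and the mitochondrial leucyl-tRNA synthetase, had 3 summits, the strongest with 239.4 (128.9 in replicate 1, 109.6 in replicate 3).

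By gene group, 1106 of the 13968 protein-coding genes (7.92%) had a start within 1000 bp of a both-strand summit, and 14 groups of genes, taken by symbol, are given beside that share. A few genes of 3 groups (aurA, aurB, dup, fzy and stg; Slh, RabGGTa and RabGGTb; Tpr2) were added by name with their peaks known in part, so those groups are also given without them. Mitochondrial ribosomal proteins stood highest, with 30 of 73 genes (41.1%, 30.5 to 52.6), followed by peroxins, the assembly factors of peroxisomes, with 6 of 15 (40.0%, 19.8 to 64.3), and aminoacyl-tRNA synthetases, which load tRNAs with amino acids, with 12 of 35 (34.3%, 20.8 to 50.8). Oxidative phosphorylation genes had 19 of 93 (20.4%, 13.5 to 29.7) and Rab and vesicle traffic genes 19 of 109 (17.4%, 11.5 to 25.6), or 17 of 106 (16.0%, 10.3 to 24.2) without the added ones. The intervals of these 5 groups lay above the share of all genes. Replication and cell cycle genes had 11 of 68 (16.2%, 9.28 to 26.7), but 8 of 63 (12.7%, 6.58 to 23.1) without the added ones, and 5 of 51 (9.80%, 4.26 to 21.0) also without genes such as Cdc5, CycC and Cdk9 that match by symbol and act elsewhere. Both of these intervals included the share of all genes, as did those of the other 8 groups, with 7 of 53 for the vacuolar ATPase and autophagy, 11 of 90 for RNA polymerases and general transcription, 4 of 35 for splicing, 8 of 92 for cytosolic ribosomal proteins, 5 of 62 for translation factors, 3 of 38 for ubiquitin enzymes, 2 of 37 for chaperones (2 of 36 without Tpr2) and 2 of 48 for the proteasome.

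Divergent arrangement was itself frequent in these groups. Of the 73 mitochondrial ribosomal protein genes, 57 were in a close head-to-head pair, and 29 of the 57 had an IDR summit (50.9%, 38.3 to 63.4), beside 21.9% of all genes in such pairs. The shares within close pairs were 12 of 23 for aminoacyl-tRNA synthetases (52.2%, 33.0 to 70.8), 6 of 12 for peroxins (interval 25.4 to 74.6), 19 of 47 for oxidative phosphorylation (40.4%, 27.6 to 54.7), 18 of 64 for Rab and vesicle traffic (28.1%, 18.6 to 40.1), 11 of 40 for replication and cell cycle (27.5%, 16.1 to 42.8), 10 of 55 for cytosolic ribosomal proteins (18.2%, 10.2 to 30.3) and 2 of 26 for the proteasome (7.69%, 2.14 to 24.1). The intervals of the traffic, cell cycle, cytosolic ribosomal and proteasome groups included 21.9%. Without the added genes the traffic share was 17 of 63 (27.0%, 17.6 to 39.0) and the cell cycle share 7 of 35 (interval 10.04 to 35.9).

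**Figure D5:**
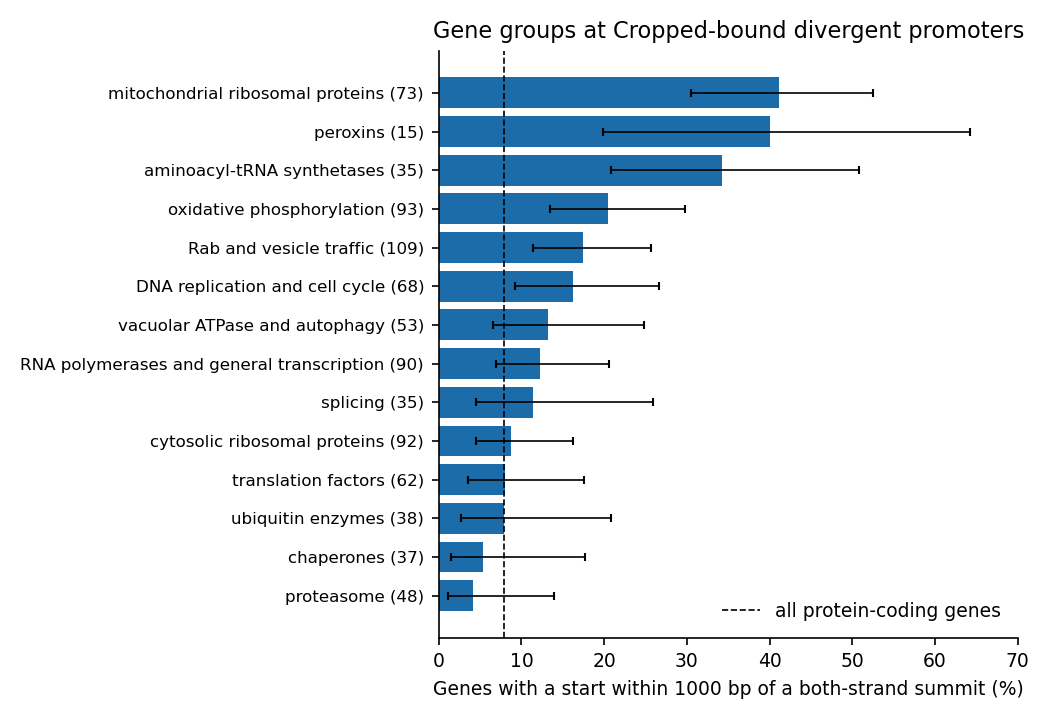
Percent of the genes of 14 groups (number of genes in brackets) with a start within 1000 bp of a both-strand Cropped summit; lines are Wilson 95% intervals and the dashed line marks the 7.92% of all protein-coding genes. The traffic, cell cycle and chaperone bars include the genes added by name. Mitochondrial ribosomal proteins, peroxins and aminoacyl-tRNA synthetases are at 34.3% or more, and the proteasome at 4.17% is lowest.

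The strongest peaks of the mitochondrial ribosome, after mRpL11, were those of mRpL32 (249.7, with 134.9 in replicate 1 and 121.2 in replicate 3), mRpL51 (213.0, with 96.3 and 118.0) and mRpS21 (194.9, with 114.9 and 86.5). Over the 30 genes the signals went down to 70.2, at mRpS24, and both subunits of the ribosome were represented. Of the synthetases, those with the strongest peaks were the mitochondrial enzymes LeuRS-m and AlaRS-m (207.9, with 94.5 and 117.2) and the cytosolic TrpRS and TyrRS (191.4, with 85.5 and 105.3). Peroxins were led by Pex11c with 207.1 (133.8 and 85.8), Pex10 with 203.0 (100.4 and 110.0), Pex11ab with 169.1 (91.2 and 77.8) and Pex13 with 110.2 (78.9 and 26.7). Respiratory chain genes were led by UQCR-C1 of complex III and by ND-B18 with 238.0 (138.7 and 97.95), ND-19 with 210.0 (110.1 and 101.0) and ND-24 with 155.0 (82.5 and 72.9), all of complex I.

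In the traffic list, Slh and RabGGTb were followed by Rab23 with 272.6 (138.0 in replicate 1, 137.5 in replicate 3) and Vps33B with 271.9 (145.0 and 132.1). The replication and cell cycle list included aurA, the Aurora A kinase of the mitotic spindle, with 249.0 (156.5 and 90.4), and dup, the fly Cdt1 of replication licensing, with 237.3 (169.1 and 65.3). Cdc5, a protein of the splicing machinery listed here by its symbol, had 231.7 (122.3 and 106.6). Median signals over the both-strand summits near the groups' genes were 204.7 for replication and cell cycle and 174.5 for traffic. They were 134.4 for mitochondrial ribosomal proteins and 106.1 for cytosolic ribosomal proteins. The added genes and the weaker summits of a pair were included. The first 2 medians include genes added with their peaks known in part, and the first also CycC, Cdc5 and Cdk9. They therefore do not rank the groups. The other cell cycle members, PolA2, Cdc16, Orc3, APC10 and Cdc45, had 212.5, 204.7, 135.2, 119.5 and 88.4. The cytosolic group was led by RpL24-like, and its next peaks were the Mgat2/Axn summit with 155.8 (87.1 and 67.4), which has the RpS28a start in its window, RpL36A with 107.6 (64.1 and 42.9) and RpS27 with 106.1 (56.5 and 42.6).

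In the smaller counts, the proteasome genes were Rpn9 with 194.4 (120.2 in replicate 1, 75.2 in replicate 3) and the Rpt3 relative Rpt3R with 84.5 (41.2 and 44.8). Of the chaperone genes, CCT3 had 74.6 (44.2 and 32.7), and DnaJ-60 had a start in the window of the CG42568/spag summit with 226.5 (143.7 and 83.3). Genes were counted by that window, and 135 of the 139 listed genes were also nearest on their strand to the summit given for them. The autophagy gene Atg9 had 214.6 (117.7 and 96.3) and the proton pump gene Vha36-1 had 192.7 (116.4 and 77.5). Among transcription genes MED30 of Mediator had 241.5 (133.1 and 131.5) and IntS12 of Integrator 225.2 (137.3 and 92.0), while Polr2A, the largest subunit of RNA polymerase II, had 62.8 (38.5 and 22.3), near the lower end of the list. The translation factor eIF3h had 225.9 (118.8 and 106.2), and the splicing gene Prp3 115.7 (72.4 and 42.2).

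At some pairs both genes were on a list. CycC, the cyclin of the Mediator kinase, and UQCR-C1 start 26 bp apart, with a signal of 278.2 (167.3 in replicate 1, 115.1 in replicate 3) and the hexamer 4.5 bp from the summit. Rab8, a GTPase of secretion, and the deubiquitinase gene Usp32 start 61 bp apart and had 253.7 (132.0 and 120.2). At mRpL51/Uba4 the starts nearest to the stronger summit were 31 bp apart. TrpRS/Vps16A, the second gene a subunit of lysosomal tethering complexes, had 196.6 (96.3 and 97.1). The others were Sec3/COX7B with 110.3, Taf5/Pex6 with 96.0, COX7A/Arl2 with 90.9 and mRpL55/ATPsynD with 82.9. The first 4 pairs thus lay in the upper part of the members' range and the last 4 below its median.

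In the gene models, 355 of 598 both-strand summits were intergenic (59.4%, 55.4 to 63.2), against 235 of 455 one-strand summits (51.6%, 47.1 to 56.2). In 5′ untranslated regions were 177 (29.6%), against 109 (24.0%), and in introns 48 (8.03%, 6.11 to 10.5), against 88 (19.3%, 16.0 to 23.2). By chromosome arm, 125 of 249 IDR peaks on 2L had starts of both strands, 123 of 237 on 2R, 117 of 217 on 3L, 169 of 291 on 3R, 63 of 126 on X and 1 of 2 on chromosome 4. The highest of these shares was 58.1% (52.3 to 63.6), on 3R, and its interval overlapped those of the other arms.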

How the data were processed

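ChIP-seq of crp-GFP embryos was analysed from the deposited dm6 narrowPeak lists: the IDR-thresholded peaks, the pooled candidates and 1 candidate list per replicate, each replicate list holding 30000. The authors' signal values were used as deposited; their scale is not stated, and the sources used here name neither aligner, peak caller nor IDR threshold. The dm3 lists were not used. Column 10 of the deposited lists, another quantity (the distance to the summit), placed the summits. Transcript starts came from Ensembl release 115 and DNA from the RefSeq dm6 assembly.

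Each summit was assigned the nearest start on each strand. A replicate candidate was matched where at least 50% of the shorter interval overlapped. Close pairs are neighbouring starts of opposite strands, facing away. Intervals of shares are Wilson 95% intervals and cover counting error only. Alternatives were other windows, starts, matches, hexamer distances, stronger peaks and single replicates. Members and gene lists (by symbol pattern, some genes added by name) were chosen with earlier results of these data known. Named items were the 20 strongest summits, extremes of spacing, window and replicate ratio, pairs with both genes listed, up to 4 genes per list, and up to 8 sequences. Other counts of the hexamer's position, the flanking bases and double summits were chosen after their values were seen. Procedures were tested on simulated data. Python 3.11.15, NumPy 2.4.6, pandas 2.3.3, SciPy 1.17.1 and Matplotlib 3.10.9 were used.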

Additional observations from a re-analysis of the deposited data

How the results depend on the processing

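The number of both-strand peaks was 528 to 615 under the alternatives other than the 561 IDR peaks of higher signal, of which 339 were members, with a spacing of 246 bp, 78.7% of summits between the starts, a signal of 169.1 and CAGCTG at 48.4%. Within 500 bp the median spacing was 248.5 bp. With the 5′-most start of each gene, 92.9% were head to head and 69.0% of summits lay between the starts. With the pair of smallest spacing in the window these were 95.8% and 67.0%, and the spacing was 245 bp. CAGCTG was within 25 bp of the summit at 25.6% and within 100 bp at 67.1%. The share of close pairs with a summit was 24.6% for spacing up to 500 bp, and 12.9% with the peaks of higher signal. Without replicate 1 or without replicate 3 the median signal was 58.9 to 64.5, since the signal of 1 library is below that of the pool, and the member count was 567 to 615. Of the recomputed values, 17, given above, moved and 32 did not: those stayed within the interval of the value reported or, for the member count, within 1.5 times of it. Leaving genes out of 3 gene lists was chosen after seeing the data. No paired analysis was possible because a single group was profiled. Depth is unknown, so weak binding at pairs without a summit could not be told from none.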
